A study of Mus musculus with 8 samples.

Results

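The p53 family comprises the transcription factors p53 (Trp53), p63 (Trp63) and p73 (Trp73), and MDM2 (Mdm2) and MDM4 (Mdm4) are the proteins that hold p53 in check. These 5 genes were chosen by their symbols from the 54838 genes of the deposited tables, and all 5 were found in each of the 8 libraries. RNA-seq was run on cultured mouse hepatocellular carcinoma cells, where 7 libraries came from 3H3PM subclones, given the numbers 1, 2, 3, 6, 7, 8 and 9, and 1 library was labelled 3H3P. Both groups descend from 3H3, a line from the liver tumour of a C57BL/6 mouse without the melanocortin receptor gene MC4R that was kept on a high-fat diet, and both carry the HrasQ61L mutation of that line. Both also carry a CRISPR/Cas9-made Trp53 mutation, which the labels describe as a frameshift with p53 protein lost on a western blot. The 3H3PM cells were, in addition, made to express MYC, whose species the labels leave unstated, and were grown as tumours in nude mice from which the subclones were recovered and returned to culture. Ectopic MYC, growth in a mouse and subcloning therefore cannot be told apart in this comparison. The labels do not say whether 3H3P is 1 clone, each subclone has 1 library, and the sources used here do not give the age of the donor mouse.

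In cells with intact p53, stress signals stabilise the protein, which binds DNA as a tetramer and switches on genes of cell-cycle arrest, apoptosis and repair. MDM2 is a ubiquitin ligase that marks p53 for degradation and is itself encoded by a p53 target gene, which closes a negative feedback loop. MDM4 has little ligase activity of its own, pairs with MDM2 through their RING domains and masks the activation domain of p53. In liver, p53 restrains tumour growth and is often mutated in hepatocellular carcinoma, whereas p63 is best known as a regulator of stratified epithelium and p73 for roles in neurons and multiciliated cells.

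The sequences at the start sites of Trp53 and Mdm2 are shown because these were the members with lower transcript levels in every subclone. RefSeq (GRCm38.p6) holds promoters for 4 of the 5 members; Trp63 has no entry in the table. The 250 bases before the first base of Trp53 lie on the plus strand at chr11:69580109-69580358, and those of Mdm2 on the minus strand at chr10:117710759-117711008. Capitals mark matches to CCAAT or GGGCGG, read on either strand.
Trp53 promoter: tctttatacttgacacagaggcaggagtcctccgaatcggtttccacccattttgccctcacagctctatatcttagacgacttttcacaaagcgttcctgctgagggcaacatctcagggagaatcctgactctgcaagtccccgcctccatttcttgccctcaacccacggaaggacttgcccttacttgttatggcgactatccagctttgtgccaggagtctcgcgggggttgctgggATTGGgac
Mdm2 promoter: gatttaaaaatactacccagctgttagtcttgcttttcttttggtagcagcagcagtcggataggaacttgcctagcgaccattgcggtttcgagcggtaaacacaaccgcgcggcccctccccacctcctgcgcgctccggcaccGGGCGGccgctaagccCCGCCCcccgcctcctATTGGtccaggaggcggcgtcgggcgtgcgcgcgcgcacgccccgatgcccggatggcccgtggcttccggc
The Trp53 start holds 1 further match, the E-box CACGTG, the core to which MYC and other factors of its class bind. Its first base is base 11 of the transcript, within the 30 bases at chr11:69580357-69580386, plus strand, GRCm38.p6, and capitals mark the E-box.
Trp53 start site: actttcccctccCACGTGctcaccctggct
Over the 300 bases from 250 before to 50 after each start, CACGTG on either strand was found in 7.15% of 32851 RefSeq promoters, CCAAT in 37.4% and GGGCGG in 35.7%. Mdm2 held 1 CCAAT match in reverse (ATTGG, first base at -72) and 2 GGGCGG matches (first bases at -104 and -88), and Trp53 held 1 CCAAT match in reverse at -8. The 10-letter p53 half-site was matched once in Mdm2 at -186 and once in Trp53 at -75, against 8.36% of promoters. Some annotated Mdm2 transcripts start further downstream, at 117710292, 117710078 and 117710022. These starts lie outside the Mdm2 window and were not searched. No match overlapped another, Mdm4 held none of these motifs in its 2 listed promoters, and 1 of the 2 listed Trp73 promoters held 1 GGGCGG at -16. A match describes the letters only and does not show that a factor binds there.

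The libraries held 12838521 to 17987068 expected counts in the subclones and 16855985 in the library labelled 3H3P, and the counts of all 5 members were whole numbers in all 8 libraries. The subclones were distinct libraries: over their 21 pairs, chi-square of the counts was 12.6 to 102 per degree of freedom. Levels are given as CPM, counts scaled to a common library total by TMM, for comparisons of 1 gene across libraries, and as TPM, RSEM's transcript abundance corrected for length, for comparisons between genes. Of 14634 genes tested by edgeR's quasi-likelihood test, 19.1% were called at a Benjamini-Hochberg adjusted p under 0.05, 7.33% higher and 11.8% lower in the subclones. The value of the library labelled 3H3P lay outside the range of the subclones for 57.4% of the tested genes, so an absence of overlap was common. Hepatocyte markers summed to 102 to 210 CPM in the subclones and 3309 CPM in the library labelled 3H3P, with 7 of the 9 tested called lower and Cps1 at 0 in all 8 libraries. In the library labelled 3H3P, Krt18, Trf, Ass1, Apob and Krt8 stood at 543 to 690 CPM each. Alb was at 3.67 CPM there, Serpina1a at 0.498, Ttr at 0.187 and Apoa1 at 0. Afp went the other way and was not called, at 1.61 ± 2.04 CPM in the subclones and 0.311 CPM in that library. In bulk RNA, fewer cells of a type and less RNA per cell cannot be told apart, and the part of the hepatocyte marker difference in the results below was not tested. Summed markers of fibroblasts and stellate cells were 104 to 502 CPM in the subclones and 119 CPM in the library labelled 3H3P (Lum and Thy1 at 0 throughout). Their members went opposite ways: Pdgfrb was called higher at 114 ± 20.5 CPM in the subclones and 0.747 CPM in the library labelled 3H3P, and Dcn was called lower with 1 count over all subclones and 116 CPM in that library. Summed macrophage markers were 34.1 to 133 CPM in the subclones and 365 CPM in the library labelled 3H3P (Clec4f at 0 throughout), of which Cd14, called lower, made up 48.9 ± 26.8 and 350 CPM. Summed markers of endothelium were 0.229 to 2.15 and 1.99 CPM (Cdh5 and Emcn at 0 in the subclones), and those of lymphocytes at most 0.0662 and 0 CPM (5 of 7 at 0 in all libraries). Mouse Myc, the endogenous counterpart of the introduced gene, stood at 6.54 ± 3.58 CPM in the subclones (SD, n = 7) and 85.2 CPM in the library labelled 3H3P, so these counts do not check the MYC label, and the labels are used as names.

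Trp53, the targeted gene and the family member that mediates damage responses, was lower in all 7 subclones than in the library labelled 3H3P. The gene (ENSMUSG00000059552.13) lies on the plus strand of chromosome 11 from 69580359 to 69591873 (GRCm38, GENCODE vM21). Its level was 46.7 CPM at the lowest, 52.9 at the median and 66.6 at the highest among the subclones, against 212 CPM in the library labelled 3H3P, and these values rest on 611 to 1114 counts in the subclones and 3407 counts. The groups did not overlap: the library labelled 3H3P stood 3.18 times above the highest subclone. Trp53 averaged 53.9 ± 7.45 CPM in the subclones (SD, n = 7), a log2 fold change of −1.97 (SE 0.18, 95% interval −2.39 to −1.56) and a fold of 0.254 (0.191 to 0.339), and edgeR's quasi-likelihood test called it lower (Benjamini-Hochberg adjusted p = 0.000322). A frameshift can leave a transcript in place and both groups carry the mutation, so the counts do not check the knockout. Among the tested genes, 1264 had a lower log2 fold change than Trp53. Since 3H3P has 1 library, its own spread is unknown and the test takes that of the subclones for it.

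Mdm2, the ubiquitin ligase and feedback partner of p53, was also lower in all 7 subclones. It (ENSMUSG00000020184.15) is encoded on the minus strand of chromosome 10 from 117688875 to 117710758. Its level in the subclones was 34.5 CPM at the lowest, 42.9 at the median and 46.7 at the highest, against 111 CPM in the library labelled 3H3P, from 471 to 788 counts in the subclones and 1777 counts. Again no subclone reached the library labelled 3H3P, which lay 2.37 times above the highest of them. The mean of 41.4 ± 4.77 CPM in the subclones (SD, n = 7) corresponded to a log2 fold change of −1.42 (SE 0.18, 95% interval −1.83 to −1.0) and a fold of 0.375 (0.282 to 0.498), called lower with an edgeR quasi-likelihood adjusted p of 0.00128. The intervals of Trp53 and Mdm2 overlapped, and the difference between their fold changes was not tested.

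Mdm4, the partner of MDM2 that blocks p53 activation, was not called. It (ENSMUSG00000054387.13) is on the minus strand of chromosome 1 from 132959484 to 133030561. Its level was 99.5 CPM at the lowest, 111 at the median and 153 at the highest in the subclones, against 130 CPM in the library labelled 3H3P, from 1399 to 2090 counts in the subclones and 2093 counts. The groups overlapped, with subclones 6 and 8 above the library labelled 3H3P and the other 5 below it. The mean of 120 ± 19.4 CPM in the subclones (SD, n = 7) gave a log2 fold change of −0.12 (SE 0.23, 95% interval −0.64 to 0.40; edgeR quasi-likelihood adjusted p = 0.745). As a fold this is 0.919 with an interval of 0.640 to 1.32, so a change of the size seen for Mdm2 lay outside the interval.

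Trp63, the epithelial family member, was nearly undetected in the library labelled 3H3P and low but detected in every subclone. It (ENSMUSG00000022510.14) spans 25683763 to 25892102 on the plus strand of chromosome 16. The library labelled 3H3P held 3 counts, or 0.187 CPM with a 95% exact counting interval of 0.0385 to 0.545, whereas the subclones held 27 to 106 counts. In CPM the lowest subclone stood at 1.73, the median at 4.22 and the highest, subclone 8, at 7.86. The groups did not overlap, and the lowest subclone's own counting interval began at 1.14 CPM. Over all subclones, 431 counts against 3 gave a depth-scaled ratio of 21.6 with a 95% exact counting interval of 7.34 to 105, which covers counting error only. By edgeR's quasi-likelihood test Trp63 was called higher (log2 fold change 4.42, SE 1.01, 95% interval 2.15 to 6.69, adjusted p = 0.0166), and 409 tested genes had a higher log2 fold change. The call was lost with limma-voom (log2 fold change 4.11, adjusted p = 0.0829) and on log2(TPM + 1) with limma (1.27, adjusted p = 0.0777). DESeq2 gave an adjusted p of 0.000445.

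Trp73 (ENSMUSG00000029026.16; chromosome 4, 154056253 to 154140208, minus strand), which encodes p73, had 0 counts in all 8 libraries and was not tested. A count of 0 was taken to allow up to 3 counts per library, the usual one-sided 95% limit, or 0.165 to 0.229 CPM in the subclones and 0.187 CPM in the library labelled 3H3P, and no fold is given. Of the 5 members, 4 thus passed the filter on low counts, and of those 1 was called higher and 2 lower, where 7.33% of all tested genes were called higher and 11.8% lower. Genes that overlap these loci, and the Trp53 pseudogene, held few or no counts. The pseudogene Trp53-ps and the genes Gm24928 and Gm27005 over Trp63 and Trp73os and Gm26036 over Trp73 had 0 counts throughout, and Gm29257, opposite to Mdm4, had 13 counts over the 8 libraries. The library kit keeps strand, but how strand was set in the counting is not stated in the sources used here.

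**Figure D1:**
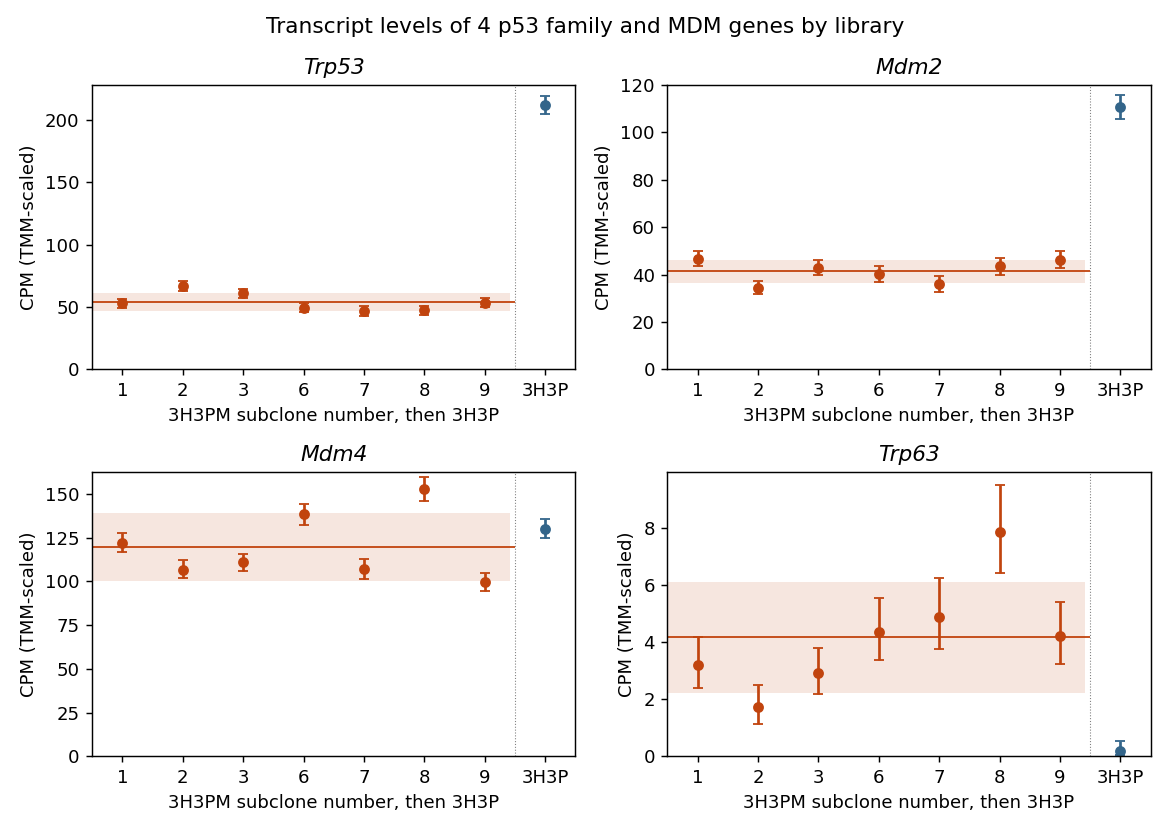
Level of Trp53, Mdm2, Mdm4 and Trp63 in CPM (vertical axes, linear and from 0) in each library, with 3H3PM subclones 1, 2, 3, 6, 7, 8 and 9 left of the dotted line and the library labelled 3H3P right of it; bars are 95% exact counting intervals, and the line and band are the mean and SD of the subclones. The subclones sit below the library labelled 3H3P for Trp53 and Mdm2, above it for Trp63 and on both sides of it for Mdm4.

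Set side by side per gene length, Trp53 and Mdm4 were the most abundant members in the subclones. Mean TPM was 48.6 ± 6.66 for Trp53, 44.0 ± 8.42 for Mdm4, 25.8 ± 3.57 for Mdm2 and 1.67 ± 0.981 for Trp63 (SD, n = 7), against 188, 48.8, 68.8 and 0.06 TPM in the library labelled 3H3P for the same genes. Mdm4 thus came directly after Trp53 in the subclones but behind both Trp53 and Mdm2 in the library labelled 3H3P. Within the subclones Trp53 and Mdm4 could not be ordered: the log2 ratio of Trp53 to Mdm4 TPM averaged 0.15 ± 0.42, was above 0 in 5 of 7 subclones and had a two-sided exact sign-flip permutation p of 0.344 (adjusted p = 0.344 over 3 neighbouring pairs). Mdm4 exceeded Mdm2 in 7 of 7 subclones by 0.76 ± 0.32 log2 units, and Mdm2 exceeded Trp63 in 7 of 7 by 4.10 ± 0.72 (exact permutation p = 0.0156 for each, the smallest that 7 subclones allow, adjusted p = 0.0234). In the library labelled 3H3P these log2 ratios were −0.50 for Mdm4 over Mdm2 and 10.16 for Mdm2 over Trp63. The 3 pairs were neighbours in the order of mean TPM over these same subclones. Their p-values therefore describe how evenly that order held and are not a separate test of it.

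The balance between p53 transcripts and those of its regulators differed between the groups to different degrees. Mdm4 over Mdm2, the ratio of the binding partners, was 1.25 at the lowest and 2.17 at the highest in the subclones (mean 1.73 ± 0.369, SD, n = 7), against 0.709 in the library labelled 3H3P. The ratio of Mdm4 to Trp53 was 0.646 to 1.33 in the subclones (mean 0.934 ± 0.281), against 0.259. For both ratios the library labelled 3H3P lay below every subclone. How often ratios of other genes do so is not given here. Trp53 over Mdm2 was 1.92 ± 0.423 in the subclones and 2.74 in the library labelled 3H3P. Here the groups overlapped, because subclone 2, which had the highest Trp53 and the second lowest Mdm2 TPM, reached 2.82 while the other 6 lay between 1.63 and 2.07. With 1 library on 1 side, an exact permutation test of such a ratio cannot give a p below 0.125.

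The deposited transcript length of a gene is the mean over its annotated transcripts, weighted by RSEM's estimate of their abundance, and so moves with the isoform makeup. Trp53 had a mean length of 1832 ± 35.7 bases in the subclones (SD, n = 7), against 1774 bases in the library labelled 3H3P. All 7 subclones were above it, by 58.8 bases on average (two-sided exact permutation p = 0.25, with 0.125 the smallest possible). How often lengths of other genes fail to overlap between the groups is not given here. Of the 6 annotated Trp53 transcripts, those of 1772 and 1771 bases lie close to the value of the library labelled 3H3P. Another coding transcript has 1822 bases, the next has 1867 bases and a non-coding one has 3275 bases. The 1867-base transcript differs from the 1771-base one by 96 extra bases at the start of exon 11, of which the first 52 are coding, at chr11:69591254-69591305, plus strand, GRCm38. These are shown because they alter the annotated end of the protein, the part of p53 where many regulators act. The labels give both groups a Trp53 frameshift with p53 protein lost, so no effect on a protein is implied for these cells. Showing them does not mark this transcript as the source of the longer values.
Trp53 extra coding bases: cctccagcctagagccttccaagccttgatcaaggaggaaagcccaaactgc
Only gene-level files were used here, so the share of each transcript is not known. A weighted mean of 1911 bases, the value of subclone 6, is above the length of every annotated transcript but the non-coding one of 3275 bases, so part of the abundance there was assigned to that transcript. In the other 6 subclones the length ran from 1808 to 1831 bases, which several mixtures of transcripts could give.

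The lengths of Mdm2 and Mdm4 overlapped between the groups. Mdm2 averaged 2550 ± 172 bases in the subclones and 2431 bases in the library labelled 3H3P, with subclone 3 below that value and the other 6 above it (exact permutation p = 0.5). Mdm4 averaged 4158 ± 226 bases in the subclones and 3879 bases in the library labelled 3H3P (exact permutation p = 0.375), with subclone 6 the only one below it. Trp63 averaged 3917 ± 575 bases in the subclones, all 7 of them below the library labelled 3H3P (exact permutation p = 0.375). Its value of 4691 bases in that library is exactly the length of 1 annotated transcript, which starts at the downstream site, and rests on 3 counts. Trp63 has 2 sets of start sites, at 25683763 to 25683765 and at 25801916, and 4 annotated transcripts begin at each. The upstream start is known for p63 forms with the full activation domain and the downstream one for the truncated forms that dominate in basal epithelium. Lengths of 3067 to 4484 bases in the subclones do not separate these forms, as both sets hold transcripts shorter than 3067 and longer than 4484 bases.

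**Figure D2:**
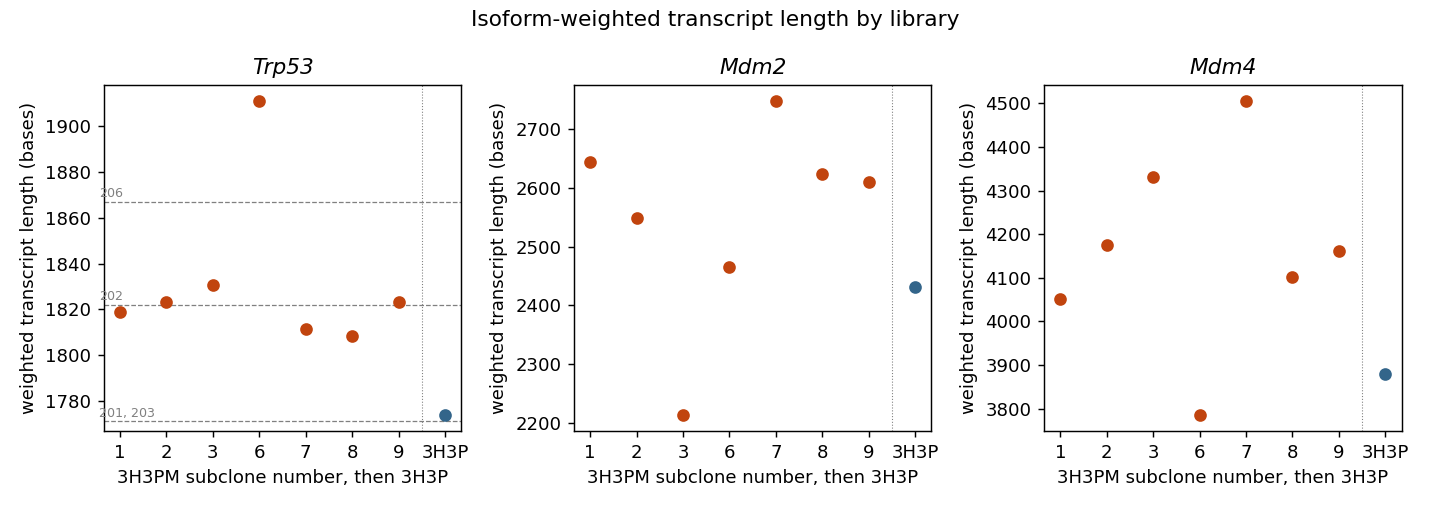
Abundance-weighted transcript length in bases (vertical axes, not from 0) of Trp53, Mdm2 and Mdm4 in the 7 3H3PM subclones and, right of the dotted line, the library labelled 3H3P. For Trp53 all subclones lie above the library labelled 3H3P at 1774 bases and subclone 6 stands at 1911 bases; dashed lines in that panel mark annotated transcript lengths with the number that ends each name; for Mdm2 and Mdm4 the groups overlap.

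The nearest tested genes on each side of the members were set beside them. They are few and lie up to 691185 bases away, so they cannot show whether a whole locus moved. Of these 20 neighbours, 3 were called, 1 higher and 2 lower, a share of 15.0% against 19.1% over all tested genes. Wrap53, which encodes a telomerase and Cajal body protein, starts 104 bases from Trp53 on the opposite strand and stood at 16 ± 2.55 CPM in the subclones (SD, n = 7) and 14.9 CPM in the library labelled 3H3P (log2 fold change 0.10, SE 0.29, edgeR adjusted p = 0.831). Fxr2, 41117 bases past the other end of Trp53, stood at 140 ± 19.6 CPM in the subclones and 122 CPM in the library labelled 3H3P (0.19, edgeR adjusted p = 0.558). None of the 4 tested neighbours of Trp53 was called, and the difference between their fold changes and that of Trp53 was not itself tested. Beside Mdm2, Cpm, 1523 bases away, was at 0.191 ± 0.0961 CPM in the subclones and 0.747 CPM in the library labelled 3H3P (−1.90, edgeR adjusted p = 0.119), and Slc35e3, 22921 bases away on the other side, had a log2 fold change of −0.30 (edgeR adjusted p = 0.473). The called neighbours were Cpsf6, a pre-mRNA 3′-end processing factor 308860 bases from Mdm2 (0.49, edgeR adjusted p = 0.0435), Pik3c2b, a lipid kinase 15106 bases from Mdm4 (−1.51, edgeR adjusted p = 0.0137), and Lpp, a focal adhesion protein 691185 bases from Trp63 (−1.22, edgeR adjusted p = 0.00579). The adjusted p of Cpsf6 ran from 0.0198 to 0.139 over the alternatives, and its call was lost in 8 of 15. The closest tested neighbour of Trp63, Gm4524, was not called (log2 fold change 1.15), nor were P3h2 on the same side (0.64) and Tprg on the other (3.88). Tprg was weakly expressed, at 1.04 ± 0.917 CPM in the subclones and 0.0622 CPM in the library labelled 3H3P. The difference between these fold changes and that of Trp63 was not tested.

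**Figure D3:**
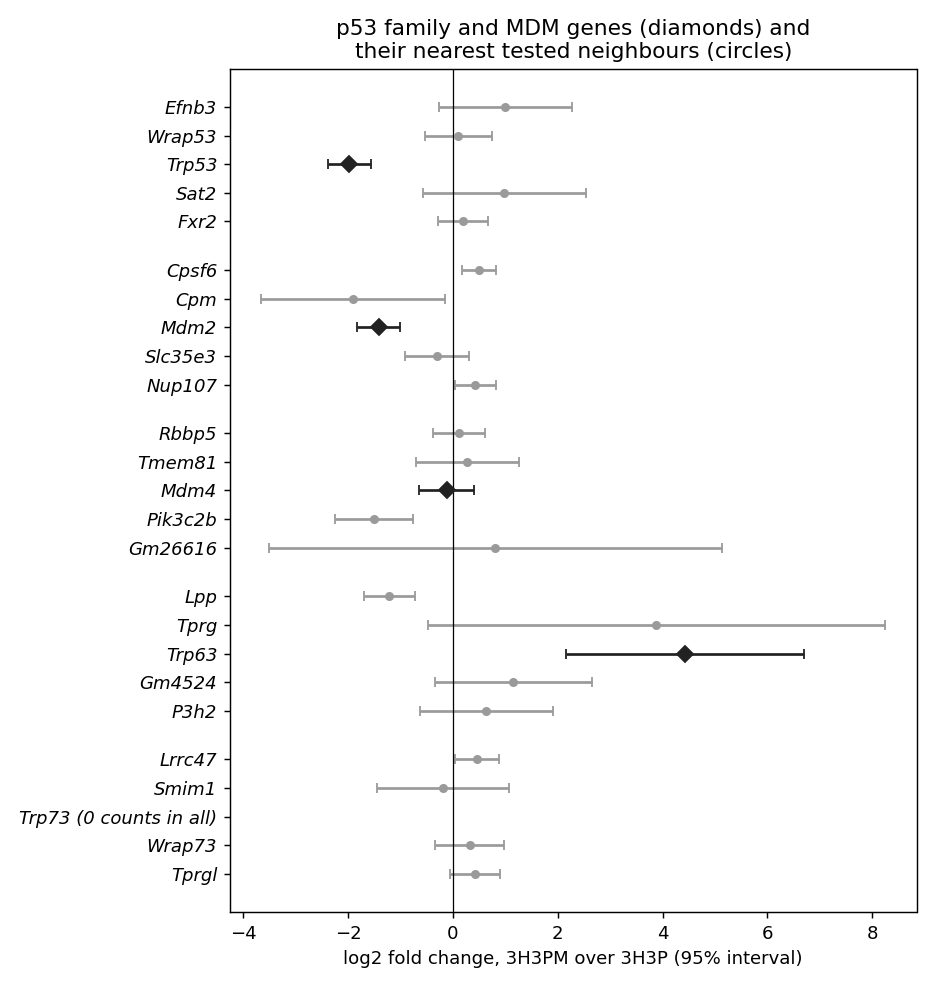
Log2 fold change, 3H3PM over 3H3P, with its 95% interval, for the tested members (diamonds) and for the 2 nearest tested genes on each side of each member (grey circles). Trp53 at −1.97 and Mdm2 at −1.42 lie to the left of Wrap53 (0.10) and Slc35e3 (−0.30), the weakly expressed Cpm beside Mdm2 lies at −1.90 with a wide interval, and Trp63 at 4.42 to the right of all others drawn. Tprg, a weakly expressed neighbour of Trp63, lies at 3.88.

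The members varied among the subclones to different degrees. The highest subclone exceeded the lowest 1.35-fold for Mdm2, 1.43-fold for Trp53, 1.54-fold for Mdm4 and 4.55-fold for Trp63. The coefficients of variation of 11.5% for Mdm2, 13.8% for Trp53, 16.3% for Mdm4 and 46.6% for Trp63 were all larger than the 3.97%, 3.47%, 2.34% and 12.7% that counting alone would give. On the log2 scale the SD over the subclones was 0.17 for Mdm2, 0.19 for Trp53, 0.22 for Mdm4 and 0.66 for Trp63, beside a median of 0.32 over all tested genes. Mdm2 and Trp53 were thus among the steadier genes, with 16.5% and 21.8% of tested genes steadier than each, and Trp63 among the more variable, with 77.9% of tested genes steadier. This ranking took in genes of any level. In mean CPM of the subclones, Mdm2 and Trp53 stood above 63.9% and 69.8% of tested genes and Trp63 above 28.8%. The part of level in the ranking was not tested.

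Trp53 and Trp63 ran against each other across the subclones. Subclone 2 had the highest Trp53 at 66.6 CPM and the lowest Trp63 at 1.73 CPM, and subclones 3 and 1 followed with Trp63 at 2.91 and 3.20 CPM and Trp53 at 61.2 and 52.9 CPM. Subclones 7 and 8, the lowest in Trp53 at 46.7 and 47.4 CPM, had the highest Trp63 at 4.89 and 7.86 CPM. Pearson's r over the 7 values of log2 CPM was −0.90 (two-sided exact permutation p = 0.00278, adjusted p = 0.0167 over 6 pairs of members) and Spearman's rho −0.93 (exact permutation p = 0.00675, adjusted p = 0.0405). Without the 2 subclones farthest from the median of Trp53, r was −0.71 over 5 subclones. The relation depended on single libraries and on the scale: the adjusted permutation p was 0.358 without subclone 2 (r = −0.79), 0.0833 without subclone 3 (r = −0.91), 0.0667 without subclone 6 (r = −0.91) and 0.174 on log2(TPM + 0.1) (r = −0.78). The 3 subclones lowest in Trp63 were also the 3 with the largest library totals, and the part of depth in this relation was not tested. The labels give no batch. The permutation test takes the 7 subclones as exchangeable, but some were more alike than others in all counts. Chi-square per degree of freedom was 12.6 for subclones 7 and 9 and 18.9 for subclones 6 and 8. It was 30.5 to 48.2 among subclones 1, 2 and 3, and 37.2 to 102 between these and the rest. The part of this likeness in the relation was not tested.

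**Figure D4:**
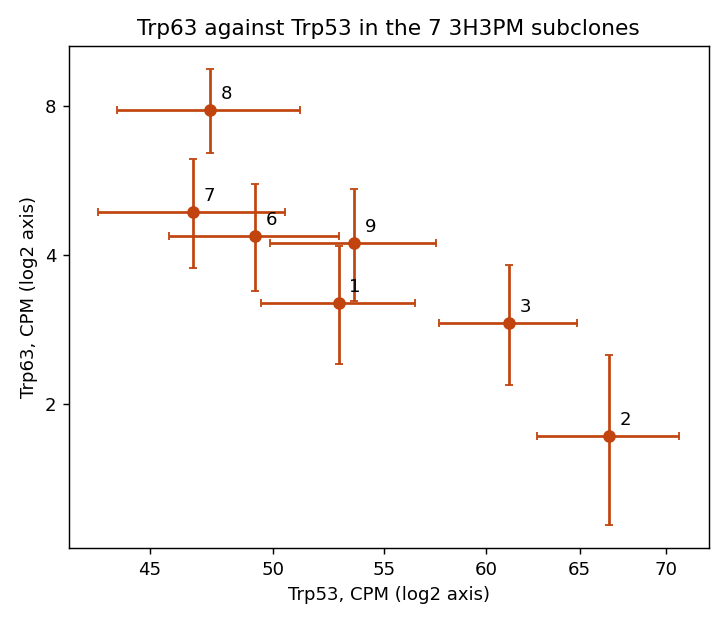
Trp63 level (vertical axis) against Trp53 level (horizontal axis), both in CPM on log2 axes, in the 7 3H3PM subclones, each point marked with its number and with 95% exact counting intervals as bars. Subclone 2 lies at the lower right and subclones 7 and 8 at the upper left, with r = −0.90.

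No other pair of members passed the test. Trp53 and Mdm2, the gene pair of the feedback loop, had r = −0.22 and rho = −0.07 (adjusted exact permutation p = 0.655 and 0.906), and r was 0.81 without the 2 farthest subclones, so its sign rested on them. Trp53 and Mdm4 had r = −0.50 (adjusted exact permutation p = 0.502), Trp63 and Mdm4 0.58 (0.502), Trp63 and Mdm2 0.36 (0.655), and Mdm2 and Mdm4 0.21 (0.655). Over 7 subclones an r of this size could not be told from 0.

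The genes whose levels ran most like each member over the 7 subclones are given as a description, since they were picked as the highest among 11041 genes and all points share library and depth. For Trp53 these were Hspb1, a small heat-shock protein (r = 0.983), Mrpl23, a mitochondrial ribosomal protein (0.979), and Cpsf3, the endonuclease of pre-mRNA 3′-end cleavage (0.975). For Trp63 they were Lims1, a focal adhesion adaptor (0.993), Brk1, a subunit of the WAVE actin regulator (0.990), and Mtcl1, a microtubule crosslinker (0.987). For Mdm2 they were Rbm41, an RNA-binding protein (0.964), Irf9, a subunit of the interferon-activated ISGF3 factor (0.963), and Tecpr1 of the autophagy pathway (0.947). For Mdm4 they were Ubr3, a ubiquitin ligase (0.991), Eprs, a tRNA synthetase (0.984), and Stat2, the partner of IRF9 in ISGF3 (0.979). The number of genes with r over 0.95 was 51 for Mdm4, 38 for Trp63, 20 for Trp53 and 2 for Mdm2.

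The genes whose products act on the p53 family or the MDM proteins were read from 6 lists of 49 genes, of which 48 were tested. Of these, 10 were called higher, 5 lower and 33 were not called, shares of 20.8% and 10.4% against 7.33% and 11.8% over all tested genes, with a median log2 fold change of 0.32 beside 0.03 over all tested genes. The count of 5 called lower was 2 with library-size scaling alone, with no filter beyond 1 count and with limma on log2(TPM + 0.1) or log2(TPM + 1), and 2 without subclone 3 or subclone 6. Without subclone 3 the count called higher was 6, and without subclone 6 it was 5. The shares over all tested genes take in genes of any level. The part of level in the shares of these lists was not tested. The p53 kinases phosphorylate p53 or MDM proteins, and 1 of 10 was called (10%, against 19.1% over all tested genes). Csnk1a1, casein kinase 1 alpha, a partner of MDM4, was called higher at 367 ± 68.9 CPM in the subclones (SD, n = 7) and 193 CPM in the library labelled 3H3P (0.93, SE 0.28, edgeR adjusted p = 0.0477), a call lost in 7 of 15 alternatives. The damage kinases Atm, Atr, Chek1, Chek2 and Prkdc were not called. Of the 3 ASPP genes, whose products bind p53 and shift its choice of targets, none was called by edgeR, DESeq2 or limma-voom, and 0 had an unadjusted edgeR p under 0.05.

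Transcripts of proteins that restrain MDM2 differed in both directions, with 3 of 7 called higher (42.9%, against 7.33% over all tested genes) and 2 lower (28.6%, against 11.8%), and a median log2 fold change of 0.48. Cdkn2a, which encodes p16 and the MDM2 inhibitor ARF from 1 locus, had 2 counts over all 7 subclones and 103 counts in the library labelled 3H3P. The depth-scaled ratio was 0.00292 with a 95% exact counting interval of 0.000349 to 0.0108. Cdkn2a was called lower by edgeR (adjusted p = 0.000918) but not by DESeq2 (adjusted p = 0.245), and the counts do not separate ARF from p16. Ribosomal proteins that bind MDM2 when ribosome assembly fails were called higher: Rpl5 at 1475 ± 141 CPM in the subclones and 856 CPM in the library labelled 3H3P (0.78, edgeR adjusted p = 0.0170), Rpl11 at 735 ± 97.8 and 427 CPM (0.78, edgeR adjusted p = 0.0388) and Rps7 at 776 ± 160 and 378 CPM (1.04, edgeR adjusted p = 0.0431). Rps27l was also called lower, at 82.3 ± 9.22 CPM in the subclones and 124 CPM in the library labelled 3H3P. Rpl23, another ribosomal protein gene of this list, was not called, at 864 ± 96.8 CPM in the subclones and 638 CPM in the library labelled 3H3P. Npm1 was not called either, at 1357 ± 144 and 974 CPM. Ribosomal protein genes have near-identical pseudogene copies, so their values rest on how RSEM divided shared reads, and the adjusted p passed 0.05 for Rpl11 (up to 0.0643) and Rps7 (up to 0.0610) in some alternatives.

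Of 14 tested genes in the lists of deubiquitinases and of ubiquitin ligases other than MDM2, 3 were called, a share of 21.4% against 19.1% over all tested genes. Of 5 deubiquitinases, Usp42 was called higher at 44.5 ± 3.35 CPM in the subclones and 28.9 CPM in the library labelled 3H3P (0.62, edgeR adjusted p = 0.0464). Otub1, which blocks ubiquitin conjugation to p53, was called lower at 91.0 ± 13.1 CPM in the subclones and 153 CPM in the library labelled 3H3P (−0.75, edgeR adjusted p = 0.0380). Usp7, the main deubiquitinase of MDM2 and p53, was at 250 ± 17.3 CPM in the subclones and 222 CPM in the library labelled 3H3P, with no call. Among 9 tested ligases 1 was called, Wwp1, lower at 28.4 ± 3.56 CPM in the subclones and 47.8 CPM in the library labelled 3H3P (−0.75, edgeR adjusted p = 0.0364). The calls of Usp42, Otub1 and Wwp1 were each lost in at least 7 of the 15 alternatives.

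Of 14 cofactors and modifiers of p53, 5 were called higher (35.7%, against 7.33% over all tested genes), 1 lower (7.14%, against 11.8%) and 8 were not called, with a median log2 fold change of 0.56. Kat2b, an acetyltransferase of p53, fell to 23.3 ± 3.63 CPM in the subclones, against 98.9 CPM in the library labelled 3H3P (−2.09, SE 0.20, edgeR adjusted p = 0.000369). Setd7, a lysine methyltransferase of p53, was at 291 ± 40.2 CPM in the subclones and 131 CPM in the library labelled 3H3P (1.15, edgeR adjusted p = 0.0111). Hdac1, a deacetylase, was at 146 ± 8.0 and 87.5 CPM (0.73, edgeR adjusted p = 0.0110), and Trp53bp1, the p53-binding scaffold of DNA break repair, at 101 ± 11.6 and 52.4 CPM (0.94, edgeR adjusted p = 0.0155). The calls of Kat2b, Setd7, Hdac1 and Trp53bp1 held in all 15 alternatives tried.

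Genes that p53 is known to activate were lower or not called. Of 22 listed target genes, all tested, 9 were called lower, 0 higher and 13 were not called, a share of 40.9% lower against 11.8% over all tested genes, with a median log2 fold change of −0.92. At 0 called higher, edgeR gave 1 gene at an unadjusted p under 0.05, and DESeq2 and limma-voom called 0. Ccng1, encoding cyclin G1, was at 32.6 ± 5.75 CPM in the subclones and 395 CPM in the library labelled 3H3P (−3.60, SE 0.21, edgeR adjusted p = 6.57e-05). Eda2r, a death-domain receptor, had 11 counts over all 7 subclones and 764 counts in the library labelled 3H3P (edgeR adjusted p = 0.000524). Phlda3, an inhibitor of AKT, was at 33.1 ± 8.87 CPM in the subclones and 131 CPM in the library labelled 3H3P (−1.98, edgeR adjusted p = 0.00484), and Aen, an apoptosis-enhancing nuclease, at 52.2 ± 9.36 and 119 CPM (−1.19, edgeR adjusted p = 0.00849). The other called targets were Bax, Zmat3, Fas, Trp53inp1 and Rrm2b. Cdkn1a, the p21 gene, was at 15.6 ± 14.9 CPM in the subclones and 114 CPM in the library labelled 3H3P, with no call, and the apoptosis gene Bbc3 was at 21.4 ± 10.2 and 15.6 CPM. The count called lower was 5 with limma on log2(TPM + 0.1) or log2(TPM + 1). The labels give both groups the Trp53 mutation, and p53 protein or activity was not measured in these files.

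**Figure D5:**
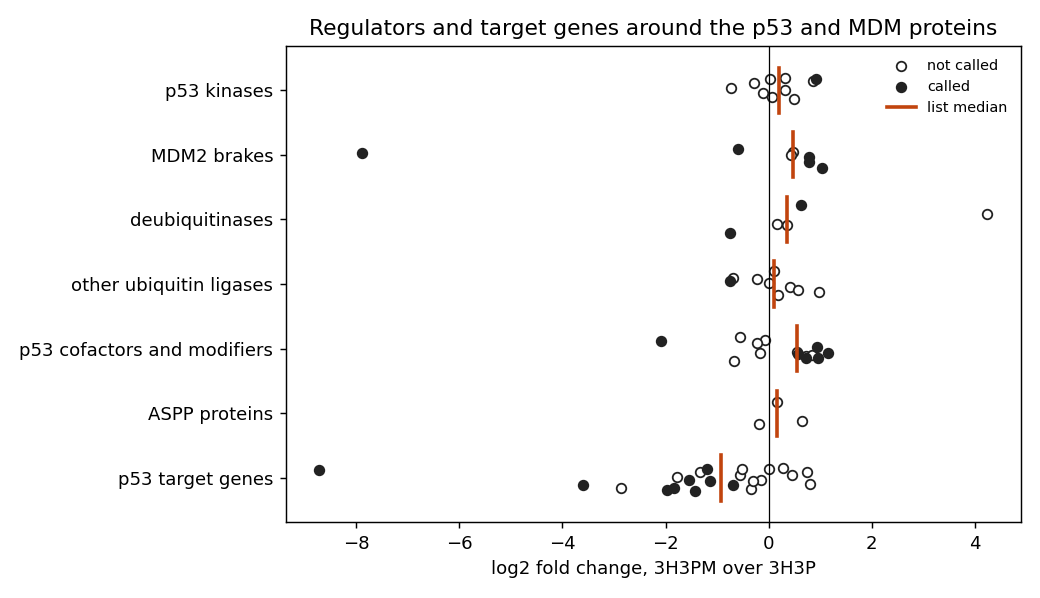
Log2 fold change, 3H3PM over 3H3P, of each tested gene in 7 lists of p53 regulators and targets; filled points were called by edgeR, open points were not, and the vertical bar is the list median. The target genes have a median of −0.92 and the 6 regulator lists medians above 0.

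Because p63 is known for its place in basal epithelium, 10 genes of that epithelium were set beside Trp63. Krt5, Dsc3 and Dsg3, a keratin and 2 desmosomal cadherins that define it, had 0 counts in all 8 libraries. Of the 5 genes tested none was called by edgeR or limma-voom, 1 had an unadjusted edgeR p under 0.05 and was higher, and DESeq2 called 3 higher. Krt14, the keratin that pairs with Krt5, was at 93.0 ± 173 CPM in the subclones (SD, n = 7) and 0.124 CPM in the library labelled 3H3P, higher in 7 of 7 subclones but not called (edgeR adjusted p = 0.205), and it was named after its values were seen. Subclone 2, the lowest in Trp63, had the highest Krt14, at 477 CPM. Subclone 8, the highest in Trp63, had 4.52 CPM. The lowest Krt14, 2.90 CPM, was in subclone 1, where Trp63 was at 3.20 CPM, and a relation of Krt14 to Trp63 was not tested. Of the other tested genes, Jag2 was higher in 7 of 7 subclones, Krt15 in 6 and Itgb4 in 4. Itga6 was lower in 7 of 7, at 38.9 ± 26.6 CPM in the subclones and 91.3 CPM in the library labelled 3H3P.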

How the data were processed

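Bulk RNA-seq libraries of 7 3H3PM subclones and 1 culture labelled 3H3P were compared. Per the labels' protocols, TRIzol-extracted RNA with a RIN above 7 went into a strand-keeping NEBNext kit. The submitters' processing notes name FastQC, STAR, RSEM, DESeq2 and GRCm38 (mm10); versions and options are not given there. The expected counts deposited by the authors are RSEM's estimates per gene, which divide reads shared between genes. The TPM and FPKM deposited by the authors are RSEM's values scaled for length and depth, and transcript lengths are weighted by isoform abundance, per the file headers and RSEM's definitions.

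Rounded expected counts entered edgeR's quasi-likelihood F test (edgeR 4.0.16 in R 4.3.3) after filterByExpr and TMM scaling, with Benjamini-Hochberg adjustment over all 14634 tested genes; an adjusted p under 0.05 was called. Only the subclones gave a spread, with 6 residual degrees of freedom, and p-values measure the spread between separate isolates with 1 library each. The SE is the size of the log2 fold change over the square root of F. Counting intervals are two-sided and exact at 95%; these and the limit for a count of 0 cover counting error only. Other tests were exact permutation tests (scipy 1.17.1). Alternatives used DESeq2 1.42.0, limma 3.58.1, other scalings, other filters, log2(TPM + 0.1), log2(TPM + 1), FPKM, effective length, and leaving out each subclone in turn. The deposited values do not resolve genes with near-identical copies.

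The members and gene lists were chosen with earlier results of these data known, and lists are described by counts and medians with no list test. Named genes were the 5 members, up to 4 called genes of each list by smallest p, the 2 nearest tested genes on each side of each member, and the 3 genes most correlated with each detected member; the last kind left out Gm and Rik symbols and pseudogenes. Any other gene was named with its values known. Synvn1 was not found under that symbol. Promoters were taken from RefSeq (GRCm38.p6) and positions from GENCODE vM21.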

Additional observations from a re-analysis of the deposited data

Results flagged for a closer look

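In 15 values of the members checked over the 7 subclones, 3 had a library far from the others, with a gap to the nearest value larger than 0.568 of the range; chance gives about 1 in 20. The abundance-weighted length of Trp53 was 1911 bases in subclone 6, and the nearest other subclone was at 1831 bases (gap of 0.780 of the range). Trp63 was at 3.78 TPM in subclone 8, with the next subclone at 1.70 TPM (0.715 of the range). In CPM, Trp63 was at 7.86 in subclone 8, 4.89 in the next and 1.73 in the lowest, a gap below 0.568 of the range. The weighted length of Trp63 in subclone 8 was 3171 bases, against a mean of 3917 bases over the subclones. The Trp53 over Mdm2 ratio of TPM was 2.82 in subclone 2, with the next at 2.07 (0.627 of the range), and 2.74 in the library labelled 3H3P.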

How the results depend on the processing

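Of 697 alternative values of 57 results, 622 kept their direction and side of the threshold or, with no test, stayed within 1 SD (lengths, ratios), 0.1 (described correlations) or 1.5 times (counts). In 4, the sign of an uncalled correlation turned: r of Trp53 and Mdm2 was 0.0114 on log2(TPM + 0.1) and −0.58 to 0.50 leaving out subclones (0.50 without subclone 2), and r of Trp63 and Mdm2 was −0.0180 and −0.24 to 0.57 (−0.24 without subclone 2). Trp53 and Mdm2 stayed called lower and Mdm4 uncalled in all 15 alternatives. Leaving out each subclone gave log2 fold changes of −2.03 to −1.93 for Trp53, −1.45 to −1.37 for Mdm2, −0.17 to −0.08 for Mdm4 and 4.21 to 4.56 for Trp63. Trp63 was not called with limma-voom (4.11) or on log2(TPM + 1) (1.27). The correlation of Trp53 and Trp63 was −0.78 on log2(TPM + 0.1) and −0.93 to −0.79 leaving out subclones. All genes called higher numbered 669 (without subclone 3) to 1185 leaving out subclones, against 1072 with all 7. Regulators called higher numbered 5 to 10 and lower 2 to 5 leaving out subclones, and 2 were called lower with library size alone, no filter, log2(TPM + 0.1) or log2(TPM + 1). Targets called lower numbered 5 on both TPM scales, and basal epithelium genes called higher 3 with DESeq2 and 0 to 1 leaving out subclones (1 without subclone 8). The causes were not tested. Scaling by library size alone moved the median log2 fold change of all genes to 0.10. No paired analysis was possible because 3H3P has 1 library with no replicate number. Trp73 at 0 counts and Trp63 at 3 counts in the library labelled 3H3P are limited by depth.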
